A study of Mus musculus with 4 samples.

Results

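The cells described here carry the deposited name cDC1_Clec9a, which the annotation gives with Xcr1 in brackets. Members were all barcodes with that name that also had counts of UMIs (unique molecular identifiers, 1 per captured transcript), 322 of 16383 cells with counts. They came from barcode suffix 1 (165 cells) and barcode suffix 2 (157 cells), which are described apart. The annotation as a whole gave the name to 165, 591, 141 and 115 cells of suffixes 1, 2, 3 and 4, or 1.25%, 4.94%, 1.51% and 1.01% of the annotated cells. Counts were at hand for each named cell of suffix 1 and for 26.6% of the named cells in suffix 2.

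The study profiled CD45-positive, propidium iodide-negative cells sorted from 4T1 tumours by 10x single-cell RNA sequencing. 4T1 is a mouse mammary carcinoma line that grows in BALB/c mice, and the tumours were either wild-type (libraries CON1 and CON2) or Mif-depleted (sgMif1 and sgMIif2), with 3 tumours dissociated for each library. Mif encodes macrophage migration inhibitory factor, a secreted cytokine. No label ties a suffix to a library, so each suffix is a sample of unknown group. No value compares wild-type with Mif-depleted tumours, there are no replicates behind any level, and no test was run.

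Type 1 conventional dendritic cells (cDC1) take up dying cells and present their antigens to CD8 T cells. They depend on the transcription factors Batf3 and Irf8 and are known by the receptors Clec9a and Xcr1. Osteoclasts are large cells of the monocyte lineage that form by fusion and resorb bone. They seal off a patch of surface, acidify it with a vacuolar proton pump and digest the exposed collagen with cathepsin K, under control of the receptor RANK.

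Counts covered 4099 genes from chromosome 1 to part of chromosome 5. Clec9a, Xcr1, Irf8 and many osteoclast genes on other chromosomes were not analysed here, so the name was checked on 7 cDC1 markers (Batf3, Ifi205, Dpp4, Zbtb46, Ly75, Rab7b and Ppt1) and on 4 osteoclast markers (Ctsk, Mmp9, Atp6v0d2 and Ocstamp). Levels are UMIs per 10000 counted UMIs, summed over cells, and values in brackets are exact 95% intervals, which reflect counting error alone. A gene was called higher or lower where the interval of its ratio lay beyond 2-fold and both sides together held 50 or more UMIs. The median number of counted UMIs was 4857 in the named cells of suffix 1 and 6220 in those of suffix 2, against 1206 and 1612 in all other cells. Barcodes of suffixes 1 and 2 shared 12 sequences among all cells and 0 among the named cells.

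The name held 2 sets of cells. Promoter sequences are given for 1 marker gene of the dendritic set and 2 of the osteoclast set. Each window runs from 250 bases before to 50 bases after the RefSeq start on GRCm38.p6. Of 6 genes looked up (these 3, Mmp9, Atp6v0d2 and Ocstamp), 3 had a sequence. Ctsk lies on the plus strand at chr3:95498960-95499259, Slc9b2 on the plus strand at chr3:135307450-135307749, and Batf3 on the plus strand at chr1:191098164-191098463. Capitals mark matches, on either strand, to 5 motifs: AP-1 (TGANTCA), the PU.1 core (GAGGAA), the NFAT core (TGGAAA) and the E-boxes CACGTG and CATGTG.
Ctsk: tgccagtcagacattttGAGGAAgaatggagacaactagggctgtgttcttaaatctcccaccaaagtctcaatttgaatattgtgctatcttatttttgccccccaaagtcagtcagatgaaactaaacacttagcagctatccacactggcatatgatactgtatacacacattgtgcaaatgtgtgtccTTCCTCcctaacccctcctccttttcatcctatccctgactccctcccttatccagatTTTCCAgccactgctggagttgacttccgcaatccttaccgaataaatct
Slc9b2: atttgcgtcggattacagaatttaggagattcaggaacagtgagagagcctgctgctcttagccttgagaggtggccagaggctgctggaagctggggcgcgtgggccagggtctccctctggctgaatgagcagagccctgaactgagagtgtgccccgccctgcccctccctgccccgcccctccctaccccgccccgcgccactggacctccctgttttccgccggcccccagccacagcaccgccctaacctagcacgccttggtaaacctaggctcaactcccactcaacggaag
Batf3: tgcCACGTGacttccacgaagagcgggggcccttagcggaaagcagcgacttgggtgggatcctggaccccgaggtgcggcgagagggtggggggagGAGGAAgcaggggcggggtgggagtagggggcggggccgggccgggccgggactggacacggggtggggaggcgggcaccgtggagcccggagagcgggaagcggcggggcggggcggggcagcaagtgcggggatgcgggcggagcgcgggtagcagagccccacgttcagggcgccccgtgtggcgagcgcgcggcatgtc

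The Ctsk window held 2 PU.1 cores, at bases 18 to 23 on the plus strand and 193 to 198 on the minus strand, and an NFAT core at bases 251 to 256 on the minus strand. The Batf3 window held a CACGTG E-box at bases 4 to 9 and a PU.1 core at bases 98 to 103, both read on the plus strand. None of the 5 motifs was present in the Slc9b2 window. Among 32851 promoters of the same length, 28.3% held the PU.1 core, 21.4% the NFAT core, 7.15% CACGTG, 14.2% CATGTG and 7.81% the AP-1 motif. A match here describes letters only.

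Most cells of the name carried very high Ctsk and almost no transcripts of Batf3, Ifi205, Dpp4, Zbtb46 and Ly75. A minority carried the reverse. At a cut of 50 Ctsk UMIs per 10000, chosen with earlier results of these data in view, 134 of 165 cells of suffix 1 (81.2% [74.4, 86.9]) and 148 of 157 cells of suffix 2 (94.3% [89.4, 97.3]) lay at or above it. They are called Ctsk-high below, and the remaining 31 and 9 cells Ctsk-low. These are ranges of 1 gene and not cell types. Few cells lay near the cut: 2 cells of suffix 1 and 1 of suffix 2 had between 25 and 100 Ctsk UMIs per 10000. In suffix 1 the highest cell below the cut had 28.3 and the lowest above it 88.0, and in suffix 2 these were 4.45 and 52.2. Cuts of 25 and 100 gave shares of 81.8% and 80.6% in suffix 1 and of 94.3% and 93.6% in suffix 2.

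Transcripts of these dendritic genes and of the osteoclast genes were mostly kept apart at the level of single cells. Of the Ctsk-low cells, 27 of 31 in suffix 1 and 8 of 9 in suffix 2 held 2 or more UMIs of Batf3, Ifi205, Dpp4, Zbtb46 and Ly75 in sum. Of the Ctsk-high cells, 0 of 134 and 1 of 148 did. Conversely, 125 of 134 and 147 of 148 Ctsk-high cells held 10 or more UMIs of Mmp9, Atp6v0d2, Ocstamp and Slc9b2, against 1 of 31 and 0 of 9 Ctsk-low cells. Only 1 cell, in suffix 2, passed both marks. At 1 or more UMIs the sets overlapped more. Then 7 of 134 and 13 of 148 Ctsk-high cells held a UMI of the dendritic sum, and 7 of 31 and 1 of 9 Ctsk-low cells held Ctsk. The cDC1 marker Ppt1, outside this sum, was found in 95 of 134 and 118 of 148 Ctsk-high cells. Cst3, a known mark of dendritic cells, was found in 132 and 147 of them. Neither gene was particular to dendritic names. In the macrophages named Macro_Maf, Ppt1 was found in 82.9% and 83.4% of cells and Cst3 in 99.5% and 100%. Depth differed between the sets: the median was 5780 and 6284.5 counted UMIs in Ctsk-high cells and 2609 and 2872 in Ctsk-low cells, with medians of 1100.5 and 1101 against 709 and 689 genes detected.

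**Figure D1:**
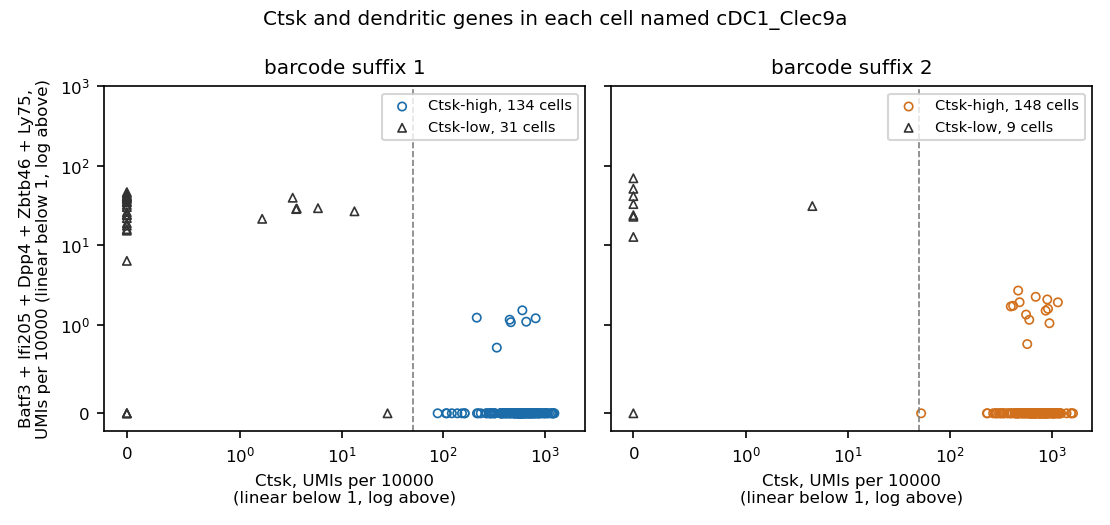
Ctsk (x axis) against the sum of Batf3, Ifi205, Dpp4, Zbtb46 and Ly75 (y axis) in each cell named cDC1_Clec9a, both in UMIs per 10000 counted UMIs on axes that are linear below 1 and logarithmic above; the dashed line is the cut of 50. Circles (134 cells of suffix 1 and 148 of suffix 2) lie right of the line and low, and triangles (31 and 9 cells) left of it and mostly high.

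Each cell was also thinned to 500 UMIs, which left out 13 and 2 Ctsk-high cells, 2 and 1 Ctsk-low cells, and 673 of 1785 and 60 of 420 B cells. Ctsk, by which the Ctsk-high cells were chosen, was then found in 99.2% (suffix 1) and 100% (suffix 2) of them, Atp6v0d2 in 90.1% and 80.1%, Slc9b2 in 71.1% and 74.7%, and Ocstamp in 32.2% and 47.9%. In the Ctsk-low cells Atp6v0d2, Slc9b2 and Ocstamp were each found in 1 of 29 thinned cells of suffix 1 and in 0 of 8 of suffix 2. Unthinned, Slc9b2 was found in 124 of 134 and 145 of 148 cells. B cells, which should lack these genes, gave 8.0% and 13.6% for Ctsk (14.01% and 35% unthinned), 0.72% and 0.83% for Atp6v0d2 and 0.63% and 1.11% for Slc9b2 after the same thinning, from median depths of 558 and 1352. Batf3 was found in 0 of 121 thinned Ctsk-high cells of suffix 1, in 34.5% of the 29 thinned Ctsk-low cells and in 0.36% of B cells. Dpp4 was found in 0 of 121 and in 11 of 29. For Zbtb46 and Ly75 the intervals of the sets overlapped at this depth: in suffix 1 they were found in 1 of 29 (3.45% [0.0873, 17.8]) and 2 of 29 (6.90% [0.846, 22.8]) thinned Ctsk-low cells against 0 of 121 Ctsk-high cells (upper bound 3.003%), and in suffix 2 in 0 of 8 Ctsk-low cells. Doublets were not called here, and the labels are silent on their removal.

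Ctsk-high cells were set against all other cells of their suffix, a comparison added after the values were seen. In suffix 1, 388 of 3513 genes (11.0%) were higher and 432 (12.3%) lower, and in suffix 2, 258 of 3086 (8.36%) were higher and 616 (20.0%) lower. Since the authors' names may rest on the same genes, these counts describe the cells and are no evidence for a name. The split depends on the scale. With S100a8 and S100a9 left out of the denominator it was 233 higher and 602 lower in suffix 1, and per cell, without division by the total, it was 1479 and 158. These scales moved the median log2 ratio of all genes from 0.08 to -0.32 and 1.39. The 6 scales were therefore applied to Ctsk-high cells, and to all named cells, against other cells. For the other comparisons below, such as those of Ctsk-low cells or with single names, no check on all 6 scales is given. For all named cells together the counts in suffix 1 were 365 of 3514 higher (10.4%) and 376 lower (10.7%), and in suffix 2 they were 254 of 3087 higher (8.23%) and 587 lower (19.0%).

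Of 3 matrix digestion genes tested, Ctsk and Mmp9 were higher in both suffixes. Ctsk, the cathepsin that cleaves bone collagen, reached 570 UMIs per 10000 in the Ctsk-high cells of suffix 1 and 726 in those of suffix 2, against 5.26 and 11.6 in other cells; this gene defined the set. The other cells include Ctsk-high cells of other names. With those left out, the log2 ratio of all named cells of suffix 1 against other cells went from 6.61 to 8.68 for Ctsk, from 6.83 to 9.29 for Nyap2, from 6.53 to 8.05 for Slc9b2 and from 6.02 to 7.80 for Atp6v0d2, while Ocstamp went from 5.08 to 5.47. Among single Ctsk-high cells of suffix 1, Ctsk ran from 88.0 to 1237 with a median of 571, and in suffix 2 from 52.2 to 1627 with a median of 699. Mmp9, a gelatinase of osteoclasts and of neutrophils, was at 326 and 417 against 11.9 and 11.3 (log2 ratio 4.78 and 5.21). It was found in 131 of 134 and 146 of 148 Ctsk-high cells. Outside this name and cells named pDC, the highest summed Mmp9 level of any of the other 21 names was 17.3 in neutrophils of suffix 1 and 20.0 in epithelial cells of suffix 2.

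All 7 measured genes of acid secretion were higher in the Ctsk-high cells of both suffixes, with median log2 ratios of 3.27 and 3.22 against 0.08 and -0.31 over all genes tested. All 7 were also higher on each of the 6 scales. Atp6v0d2, the osteoclast isoform of the d subunit of the proton pump, stood at 42.6 and 40.6 UMIs per 10000 against 0.591 and 0.857 (log2 ratio 6.17 and 5.57). Pump subunits that most cells use were higher too: Atp6v1g1 was at 101 and 123 against 15.8 and 15.3 (2.68 and 3.0), Atp6v0b at 58.8 and 61.4 (2.24 and 2.36), and Atp6v1h had ratios of 2.04 and 1.81. Car2, carbonic anhydrase 2, which supplies the protons, was at 7.91 and 7.54 against 0.49 and 0.708 (4.01 and 3.41). Slc4a2, the chloride and bicarbonate exchanger that disposes of the base, followed with log2 ratios of 3.27 and 3.22. Slc9b2, a sodium and proton exchanger of osteoclasts, was at 30.5 and 35.4 against 0.297 and 0.651 (6.68 and 5.76).

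Genes of fusion, attachment and signalling were higher in part. Of 4 fusion genes tested, Ocstamp and Atp6v0d2 were higher in both suffixes, and Cd44 and Sirpa were not called. Ocstamp, a membrane protein needed for osteoclast precursors to fuse, was at 14.4 and 17.6 UMIs per 10000 against 0.385 and 0.525 (log2 ratio 5.22 and 5.06). Of the 8 attachment genes tested, Itgav, the alpha chain of the vitronectin receptor, and the kinase Src were higher in both suffixes. Itgav was at 17.4 and 20.1 against 2.17 and 2.93, and Src at 5.07 and 5.57 against 0.674 and 1.03. The other 6, which include the actin regulators Actr3, Arpc5 and Capzb, were not called, and all had log2 ratios between -0.15 and 0.55. Per cell, without division by the total, all 8 were higher. On that scale 1479 of 3513 genes were higher in suffix 1 and 1145 of 3086 in suffix 2, so this count says little about attachment genes. Of 9 genes of RANK and immunoreceptor signalling, Tnfrsf11a, which encodes RANK itself, was at 6.71 and 6.84 against 0.767 and 0.897 (3.13 and 2.93), and the AP-1 member Fosl2 had ratios of 1.16 and 1.17. Traf6, the adaptor of RANK, was not called at 0.69 and 0.68, nor was Jun at 0.56 and 0.07. The myeloid factor Spi1, which encodes PU.1, was called in suffix 2 alone (0.79 and 1.13), as was the lower Nfatc2 (-1.26 and -1.77), and the difference between suffixes was not tested.

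**Figure D2:**
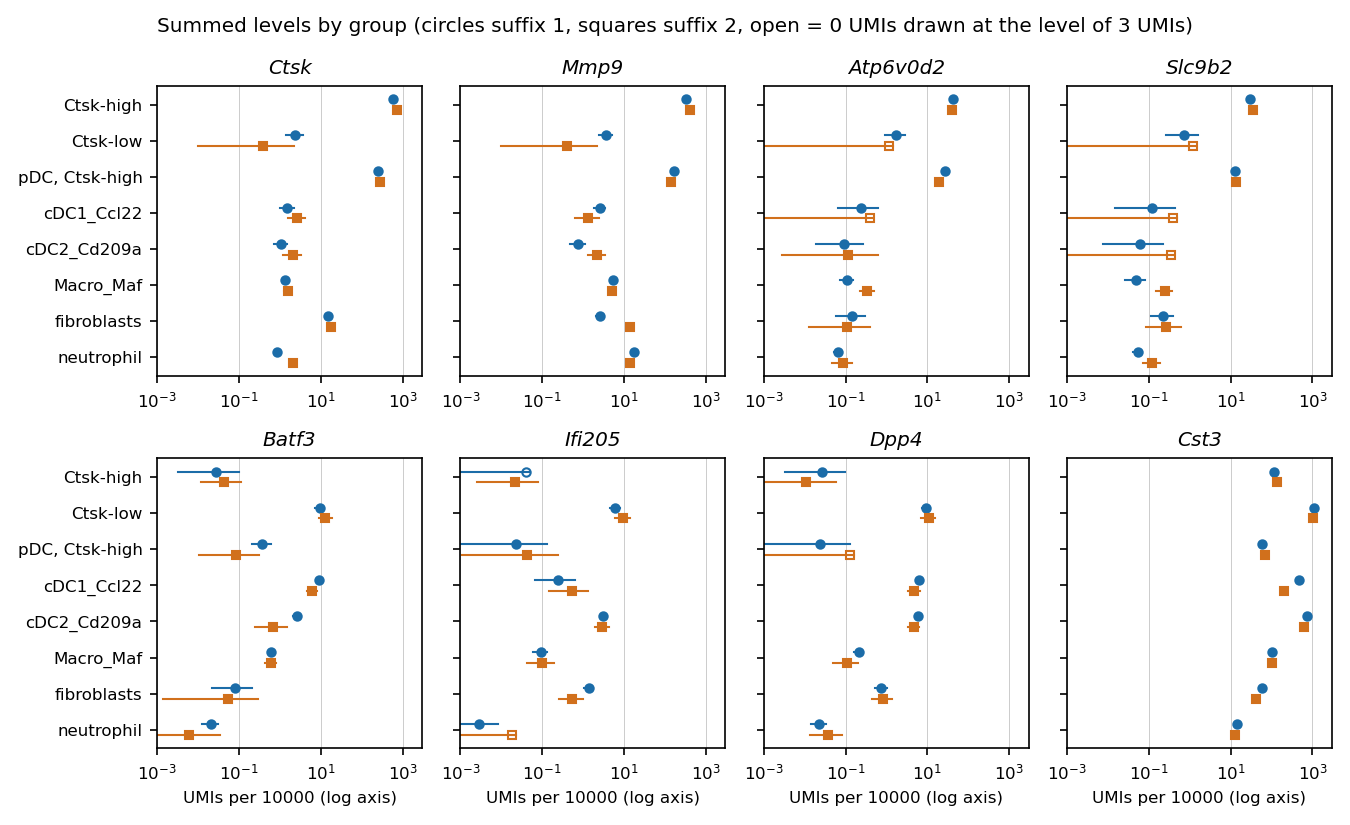
Summed levels (x axis, UMIs per 10000, log scale) of 8 genes in 8 groups of cells (rows), with exact 95% intervals for counting error that are drawn to the left edge where they reach below it. Circles are suffix 1 and squares suffix 2, and open symbols are 0 UMIs drawn at 3 UMIs. The osteoclast genes in the upper row are high in the Ctsk-high cells, with Ctsk at 570 and 726, and the dendritic genes in the lower row in the Ctsk-low cells, with Batf3 at 9.32 and 13.0.

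Genes of oxidative phosphorylation were higher as a group. In suffix 1 all 19 tested genes were higher (median log2 ratio 1.89), and in suffix 2, 17 of 19 were (1.57). Over the 6 scales and both suffixes 0 of the 19 were called lower. How many of the 19 stayed higher on each scale is not given here. Sdhb and Sdhc, subunits of succinate dehydrogenase, differed by log2 ratios of 2.61 and 2.10 (suffix 1) and of 2.32 and 2.05 (suffix 2). Ndufs1 of complex I reached 2.18 and 2.06, and Atp5g3 of the ATP synthase 2.06 and 1.75. The list summed to 446 and 505 UMIs per 10000 in Ctsk-high cells, 251 and 277 in Ctsk-low cells and 142 and 193 in other cells. Among the 23 names, the cells named cDC1_Clec9a ranked first for this list in both suffixes, with 426 and 499, ahead of cells named pDC with 284 and 347. Neutrophils, a large part of the other cells, ranked last with 42.7 and 45.0, which lowers the level of the other cells. Citrate cycle genes behaved alike in suffix 1, with 5 of 5 higher, and 4 of 5 in suffix 2. Idh3b, a subunit of isocitrate dehydrogenase, was at 7.53 and 8.48 against 1.83 and 2.17.

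Of the 3 measured glycolysis genes, 2 were lower and 1 was not called, and per cell 1 was lower. Slc2a1, the glucose transporter GLUT1, had log2 ratios of -1.81 and -1.97, and Pfkfb3, which makes the activator of phosphofructokinase, -2.87 and -2.95. Eno1, enolase, was not called at -0.27 and -0.66. Txn1, thioredoxin, was higher in suffix 1 (1.22) and not called in suffix 2 (0.90).

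**Figure D3:**
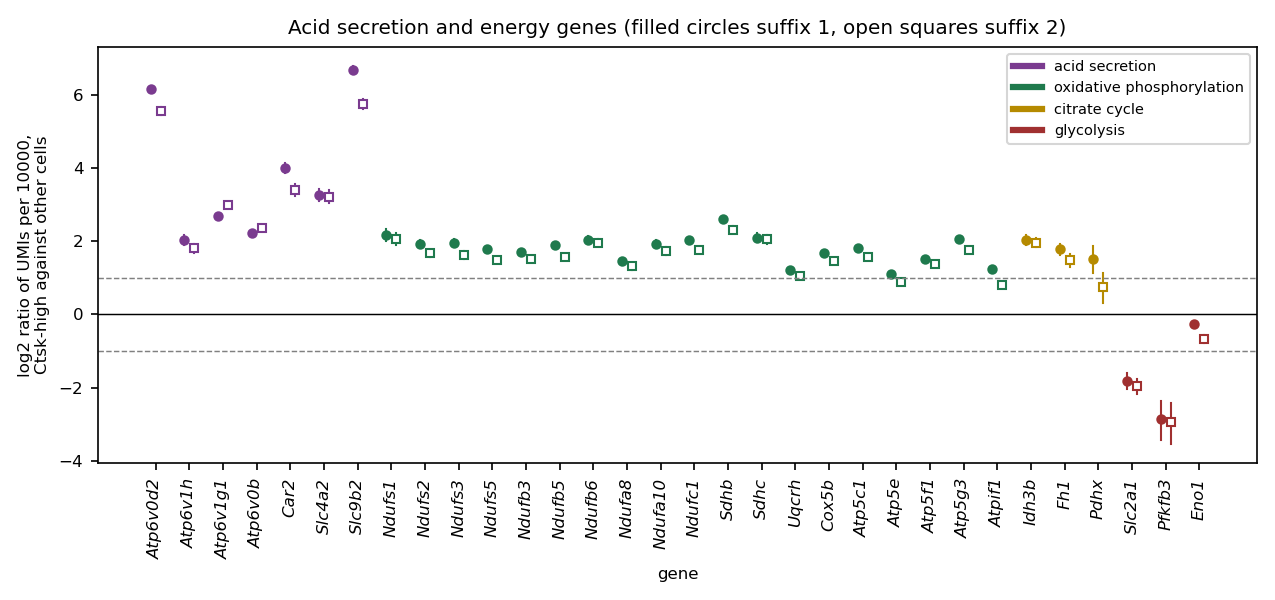
Log2 ratio of UMIs per 10000 in Ctsk-high cells against other cells of the same suffix (y axis) for genes of acid secretion, oxidative phosphorylation, the citrate cycle and glycolysis (x axis), with exact 95% intervals for counting error; filled circles are suffix 1, open squares suffix 2, and dashed lines mark 2-fold. Sdhb and Sdhc also belong to the citrate cycle and are drawn once. The acid secretion and oxidative phosphorylation genes lie above 0, and Slc2a1 and Pfkfb3 lie below -1 in both suffixes.

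Many of the genes with the highest ratios in Ctsk-high cells have no place in the fixed lists. Of the 20 highest in suffix 1, 19 were also called higher in suffix 2. Nyap2, an adaptor of phosphoinositide 3-kinase, had 91 UMIs in the Ctsk-high cells of suffix 1 and 28 in all other cells of that suffix (log2 ratio 6.99), and 168 and 11 in suffix 2 (6.96). Cfap45, a protein of cilia and flagella, had ratios of 6.59 and 6.17, and Bdh2, a cytosolic hydroxybutyrate dehydrogenase, 5.71 and 4.94. Cacnb2 (a calcium channel subunit), Slc45a3 (a solute carrier), Kazn, Abcb4 (a phospholipid transporter) and Col27a1 (a collagen chain) lay between 5.09 and 5.66 in suffix 1 and between 3.95 and 5.25 in suffix 2. The exception among the 20 was Htr2b, a serotonin receptor, at 4.70 in suffix 1 and 2.40 in suffix 2, where it had fewer than 50 UMIs. S100a4, a calcium-binding protein of motile cells on the monocyte list, was at 412 and 433 against 23.2 and 45.2 (4.15 and 3.26).

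Of the markers of other cell types, those of macrophages, neutrophils, T cells and B cells were mostly lower in the Ctsk-high cells, and those of dendritic cells in part. The monocyte list summed to 413 and 434 UMIs per 10000 against 62.1 and 88.1, of which S100a4 made up 412 and 433 in the Ctsk-high cells, and the list ranked first among the 23 names in all named cells of both suffixes. The cDC2 list was at 17.9 and 14.9 against 17.4 and 18.5, with 2 of 5 genes lower in each suffix. The list of mature dendritic cells was at 12.6 and 12.9 against 12.2 and 15.5, with 0 and 2 of 4 genes lower, and the endothelial list at 0.448 and 0.353 against 0.310 and 0.465, with 0 genes called. All 7 macrophage markers were lower in both suffixes, and the complement genes C1qa, C1qb and C1qc had log2 ratios between -4.51 and -4.07 in suffix 1. The other 3 of the 4 monocyte markers, Fn1, Thbs1 and Chil3, were also lower, Fn1 at -4.72 and -5.46. Of 10 neutrophil genes tested in suffix 1, 9 were lower, with S100a8 at 20.6 UMIs per 10000 against 1073 in other cells. All 7 T cell and all 5 B cell genes tested were lower too. Per cell, 6 of the macrophage, 9 of the neutrophil, 2 of the T cell and 4 of the B cell genes were still called lower in suffix 1. Of the cDC1 markers, 5 of 7 were lower in suffix 1 and 4 of 7 in suffix 2, and per cell 0 of 7 were called lower in suffix 1. Batf3 had 2 and 4 UMIs in all Ctsk-high cells, and Ifi205 had 0 and 2. Cell cycle genes were lower in 14 of 20 cases in suffix 1 and 19 of 20 in suffix 2, with a summed level of 7.34 and 5.11 against 27.5 and 38.3, and per cell 5 and 14 of the 20 were lower. Ptprc, which encodes the CD45 used for sorting, was at 5.20 and 5.12 against 20.8 and 19.5 (-2.00 and -1.93), a gene added after its values were seen. These are shares of counted UMIs and not UMIs per cell. Median counted UMIs were 5780 and 6284.5 in Ctsk-high cells against 1206 and 1612 in other cells.

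Of 4 genes that restrain osteoclast formation, 3 were lower in both suffixes. Of 7 antigen presentation genes, 1 was higher and 2 lower in suffix 1, and 0 higher and 4 lower in suffix 2. Id1, an inhibitor of basic helix-loop-helix factors, had log2 ratios of -3.81 and -2.40, and Fcgr2b, the inhibitory Fc receptor, -2.66 and -3.40. Ctss, the cathepsin that trims the invariant chain of MHC class II in antigen-presenting cells, was at 6.33 and 7.66 UMIs per 10000 against 35.4 and 42.2 (-2.48 and -2.46). Ctsk and Ctss are near each other on chromosome 3, starting at bases 95499256 and 95526786 (GRCm38, GENCODE M21), and differed in opposite directions. Ctsa, a lysosomal carboxypeptidase, was higher (1.41 and 1.49), and B2m, the light chain of MHC class I, was not called (-0.16 and -0.18). The iron exporter Slc40a1 was lower at -2.95 and -3.59.

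Against Macro_Maf, the complement-rich macrophages, 193 of 2578 genes (7.49%) were higher in the Ctsk-high cells of suffix 1 and 347 (13.5%) lower. In suffix 2 these were 175 of 2144 (8.16%) and 285 (13.3%). For all named cells the counts were 175 of 2592 higher (6.75%) and 303 lower (11.7%) in suffix 1, and 166 of 2155 higher (7.70%) and 283 lower (13.1%) in suffix 2. All 7 acid secretion genes and 15 of 19 oxidative phosphorylation genes were higher than in Macro_Maf in suffix 1, and 7 and 14 in suffix 2. Tnfrsf11a was at 6.71 and 6.84 against 1.72 and 2.10 (1.96 and 1.71). Zfp462, a zinc finger gene, was at 1.22 and 1.18 against 0.00339 in suffix 1 and 0 UMIs in suffix 2. With 3 UMIs as the floor this is a ratio of 32.3-fold in suffix 2. The lowest ratios belonged to macrophage genes such as Mrc1, the mannose receptor (-6.57 and -5.50), Cd93 (-6.30 and -6.58) and Pdpn, podoplanin (-6.19 and -6.51).

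The Ctsk-low cells carried the dendritic side of the name. In suffix 1, 103 of 3495 genes (2.95%) were higher in them than in other cells and 109 (3.12%) lower, and in suffix 2, with 9 cells, 59 of 3033 (1.95%) and 37 (1.22%). All 7 measured cDC1 markers were higher in suffix 1, with a median log2 ratio of 4.40 against 0.56 over all genes. Batf3, the transcription factor on which cDC1 depend, was at 9.32 and 13.0 UMIs per 10000 against 0.317 and 0.322 (4.88 and 5.34). Dpp4, the peptidase CD26 on the cDC1 surface, was at 9.20 and 10.7 (4.40 and 4.41). Ppt1, a lysosomal thioesterase, was at 42.3 and 39.1 against 3.54 and 3.64 (3.58 and 3.43), and Zbtb46, a factor of conventional dendritic cells, had ratios of 4.71 and 4.23 from 15 and 3 UMIs. Ly75, the uptake receptor DEC-205, was called in suffix 1 (2.27) and rested on 2 UMIs in suffix 2 (0.76). Ifi205 and Ifi211, interferon-inducible genes of a cluster of near-identical copies, had ratios of 5.32 and 3.94 in suffix 1. Their values are uncertain, because how reads shared by copies were counted is not given in the sources used here.

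Further genes of the Ctsk-low cells were mostly on no dendritic list. Cst3, cystatin C, which is a known mark of dendritic cells, took up 1078 and 1058 of every 10000 UMIs (log2 ratio 4.08 and 4.05), with a median of 1095 per cell in suffix 1. Mycl, a Myc family factor of cDC1, was at 3.27 and 2.77 against 0.0386 and 0.0315, resting on 27 and 7 UMIs (6.40 in suffix 1). The scavenger receptor Cd36 reached 4.64 and 3.18 and the nucleotide sugar receptor P2ry14 4.34 and 3.03. Fcer1g, the common Fc receptor chain, was lower at 11.6 and 19.8 against 70.1 and 66.2 (-2.59 and -1.74). Sirpa, a cDC2 marker, was at 0.726 and 1.58 against 6.18 and 6.56, lower in suffix 1 and not called in suffix 2. All 7 macrophage markers were lower in suffix 1. The acid secretion genes summed to 28.7 and 24.9 UMIs per 10000, next to 31.9 and 32.2 in other cells, and 0 of the 7 were called in suffix 1.

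Set against Ctsk-high cells directly, the Ctsk-low cells had 102 of 1559 genes (6.54%) higher and 123 (7.89%) lower in suffix 1, and 75 of 1595 (4.70%) and 63 (3.95%) in suffix 2. Beyond the genes that separate the sets by design, Btg2, an antiproliferative gene, was at 54.8 and 40.7 against 1.66 and 0.93 (log2 ratio 5.05 and 5.45). Il1b, interleukin-1 beta, was at 75.3 and 108 against 3.11 and 2.26, and Ptprc at 19.4 and 22.5 against 5.20 and 5.12. Ifi205 was 149-fold higher in suffix 1 with the floor of 3 UMIs in place of 0 in the Ctsk-high cells. The lower end of its interval was a log2 ratio of 6.86. The neuropilin Nrp2, a receptor of semaphorins and growth factors, was lower at 0.726 and 0.791 against 25.1 and 27.5 (-5.11 and -5.12), and Tgfbr1, a TGF-beta receptor, at 0.242 and 0.791 against 9.97 and 8.18.

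The other name that begins with cDC1, cDC1_Ccl22, had higher levels of the mature dendritic markers than the Ctsk-low cells. In suffix 1, 25 of 774 genes (3.23%) were higher in the Ctsk-low cells and 94 (12.1%) lower, and in suffix 2, 12 of 357 (3.36%) and 44 (12.3%). All 4 measured markers of mature dendritic cells were lower in the Ctsk-low cells of both suffixes, with medians of -3.97 and -3.39. Fabp5, a fatty acid-binding protein, was at 0.969 against 77.0 in suffix 1 and at 0 UMIs against 45.1 in suffix 2, and Cd40, a costimulatory receptor, at 0.484 and 0.395 against 10.7 and 7.72. Ptgs2, the inducible cyclooxygenase, was at 0.121 and 3.16 against 19.0 and 21.2. Batf3 was not called (0.05 and 1.06), while Ppt1 (4.91 and 4.90) and Gpr171, a G protein-coupled receptor (3.09 and 3.70), were higher in the Ctsk-low cells. For all named cells against cDC1_Ccl22 the counts were 166 of 1784 higher (9.30%) and 215 lower (12.1%) in suffix 1, and 111 of 1714 higher (6.48%) and 223 lower (13.0%) in suffix 2. Mreg had 1 UMI in the named cells of suffix 1 against 110 in cDC1_Ccl22, a log2 ratio of -9.10 [-14.4, -6.59]. Mdk and Tnfsf4 had 0 UMIs there against 76 and 66.

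Against cDC2_Cd209a, which holds the second kind of conventional dendritic cell by name, 18 of 1068 genes (1.69%) were higher in the Ctsk-low cells of suffix 1 and 56 (5.24%) lower. In suffix 2, with 9 Ctsk-low cells, these were 5 of 357 (1.40%) and 19 (5.32%). Rab7b, a small GTPase of late endosomes, was at 7.51 and 5.93 UMIs per 10000 against 0.34 and 0.227. Ppt1 was at 42.3 and 39.1 against 2.81 and 2.83 (3.91 and 3.79), and Batf3 at 9.32 and 13.0 against 2.59 and 0.68. Il1r2, the decoy receptor of interleukin-1, was lower at 0.969 and 2.37 against 25.3 and 19.9 (-4.71 and -3.07). Dpp4 was not called in either suffix (log2 ratio 0.64 [0.239, 1.03] and 1.20 [0.443, 1.94]), nor was Ifi205 (0.97 [0.452, 1.48] and 1.69 [0.824, 2.55]), and all 4 intervals lay above 0.

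Ctsk-high cells also occurred under other names. They made up 50 of 169 cells named pDC in suffix 1 (29.6% [22.8, 37.1]) and 31 of 77 in suffix 2 (40.3% [29.2, 52.1]), and 42 of 871 Macro_Vegfa cells in suffix 1 (4.82%) but 0 of 253 in suffix 2. The cut also takes in shallow cells: those 42 cells had a median of 783.5 counted UMIs and a summed Ctsk level of 88.2, against 570 in the Ctsk-high cells named cDC1_Clec9a. In suffix 1, 24 of 1785 B cells (1.34%) lay at or above it, and 10 of these held 5 or more Ctsk UMIs. Over all 23 names together, 274 of 13162 cells of suffix 1 and 203 of 3221 of suffix 2 lay at or above the cut. The 6 Ctsk-high fibroblasts of suffix 1 had 0 UMIs of Mmp9 and of Atp6v0d2. Fibroblasts are known to express Ctsk.

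The Ctsk-high cells of the 2 dendritic names differed in osteoclast, cell cycle and neutrophil genes, in a comparison added after the values were seen. In suffix 1, 7 of 1865 genes (0.375%) were higher under cDC1_Clec9a than under pDC and 74 (3.97%) lower, and in suffix 2, 18 of 1771 (1.02%) and 69 (3.90%). Ctsk was at 570 against 252 UMIs per 10000 in suffix 1 and at 726 against 285 in suffix 2, and Slc9b2 at 30.5 against 12.6 and 35.4 against 13.5. Ocstamp was at 14.4 against 6.07 and at 17.6 against 6.92. These 3 were called higher under cDC1_Clec9a in both suffixes, and Mmp9 in suffix 2 alone (log2 ratio 0.97 and 1.54). Atp6v0d2 was not called in either suffix (log2 ratio 0.65 and 1.05), and 0 of 19 oxidative phosphorylation genes were called in suffix 1. Cell cycle genes were lower under cDC1_Clec9a for 14 of 15 tested in suffix 1 and 12 of 12 in suffix 2. Ube2c, which drives exit from mitosis, was at 0.149 against 4.28 and at 0.128 against 10.6. All 9 neutrophil genes tested in suffix 1 and all 6 in suffix 2 were lower too, with the list at 55.7 against 681 UMIs per 10000 in suffix 1 and at 17.6 against 519 in suffix 2. S100a8 stood at 20.6 against 258 and at 6.84 against 237. The cells named pDC had more counted UMIs, with medians of 8558.5 and 7920, and the part of depth, doublets and neutrophil RNA in these differences was not tested.

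**Figure D4:**
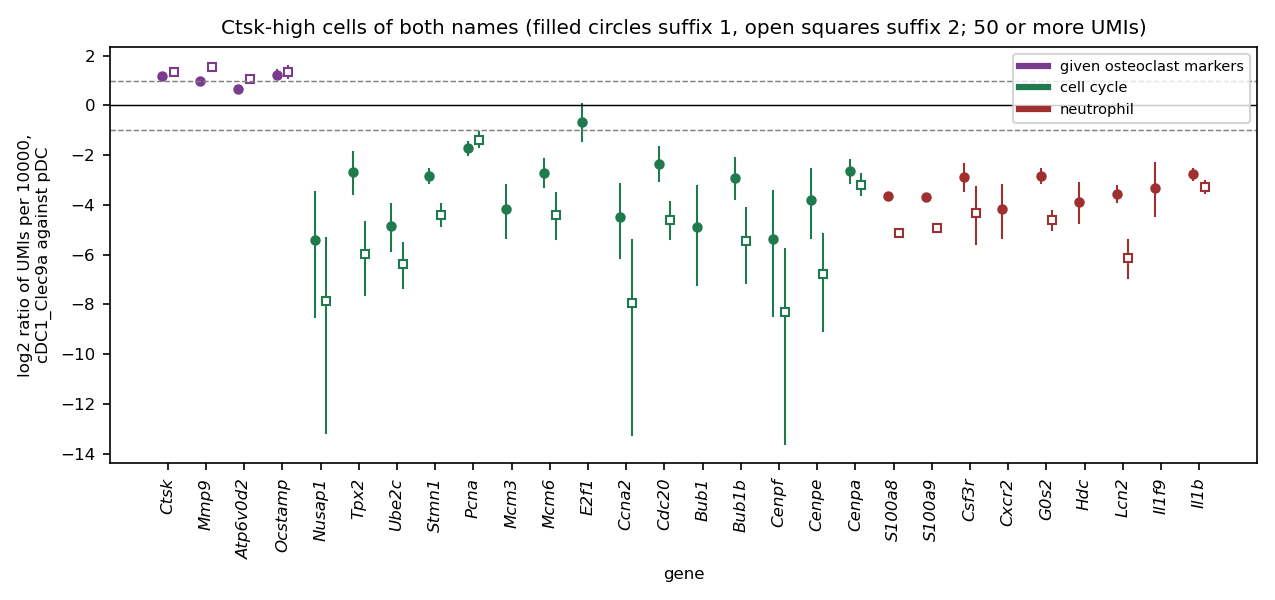
Log2 ratio of UMIs per 10000 (y axis) in Ctsk-high cells named cDC1_Clec9a against Ctsk-high cells named pDC of the same suffix, for the osteoclast markers, cell cycle genes and neutrophil genes (x axis), with exact 95% intervals for counting error; dashed lines mark 2-fold. Filled circles are suffix 1 and open squares suffix 2, and genes with fewer than 50 UMIs in a suffix or with 0 UMIs on 1 side are not drawn. The 4 osteoclast markers lie above 0, with Ctsk at 1.18 and 1.35, and cell cycle genes lie mostly below -1, with Ube2c at -4.84 and -6.37.

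Within the Ctsk-high cells the osteoclast genes varied together to different degrees. Spearman's rho of Ctsk with Mmp9 was 0.58 over the 134 cells of suffix 1 and 0.51 over the 148 of suffix 2, with Slc9b2 0.50 and 0.45, with Ocstamp 0.34 and 0.30 and with Atp6v0d2 0.29 and 0.14. Mmp9 and Atp6v0d2 gave -0.04 and -0.03. These values describe cells of 1 library each that share a denominator. Ctsk showed little relation to the number of counted UMIs (-0.09 and -0.03).

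Split at 400 and 800 Ctsk UMIs per 10000, the Ctsk-high cells fell into 32, 78 and 24 cells in suffix 1 and 18, 76 and 54 in suffix 2. This split was chosen after the values were seen, and depth was not ordered along it, since the median UMIs were 5923.5, 6177.5 and 4936 (suffix 1) and 5723, 6811.5 and 6040.5 (suffix 2). Mmp9 was higher in each next range, from 145 to 328 and 621 UMIs per 10000 in suffix 1 and from 136 to 397 and 528 in suffix 2. Cst3 went from 73.8 to 104 and 234 and from 70.9 to 123 and 179. Ecm1, an extracellular matrix protein, went from 4.83 to 33.8 and from 4.43 to 15.3 between the lowest and the highest range, and Steap4, a metalloreductase, from 1.18 to 6.33 and from 0.739 to 5.17. Atp6v0d2 varied less, from 32.3 to 48.3 and from 31.9 to 43.5.

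Other genes ran the other way, of which 4 are given here, chosen after their values were seen. Ptma, prothymosin alpha, went from 167 to 97.1 and 59.3 UMIs per 10000 in suffix 1 and from 125 to 80.1 and 57.0 in suffix 2. H2afz, a histone variant, went from 109 to 36.5 and from 69.1 to 33.2 between the outer ranges, and Ncl, nucleolin, from 27.4 to 9.22 and from 22.3 to 9.40. S100a6 did likewise, from 50.9 to 22.6 and from 52.4 to 20.0. With an interval that excluded a ratio of 1 as the mark, 220 of 747 genes (29.5%) were higher in the lowest than in the highest range in suffix 1 and 111 (14.9%) lower, and in suffix 2, 189 of 965 (19.6%) and 102 (10.6%). Of 724 genes tested in both suffixes, 109 were higher and 64 lower in both. The share of UMIs taken by Ctsk and Mmp9 together was 4.26%, 9.15% and 16% over the ranges of suffix 1 and 4.49%, 10.1% and 15.5% over those of suffix 2, and its part in the lower levels of the other genes was not tested.

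**Figure D5:**
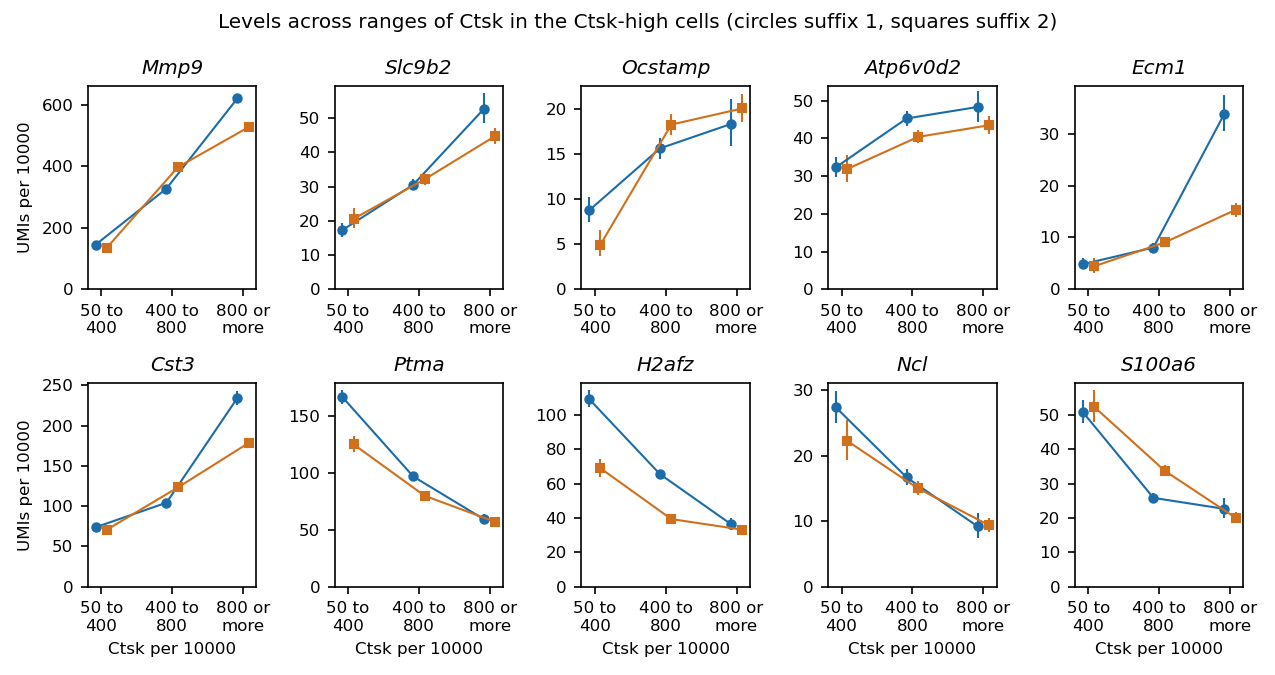
Summed levels (y axis, UMIs per 10000) of 10 genes in the Ctsk-high cells, split into 3 ranges of Ctsk per 10000 (x axis), with exact 95% intervals for counting error; circles are suffix 1 and squares suffix 2, and lines join ranges of 1 suffix. Mmp9, Slc9b2, Ocstamp, Atp6v0d2, Ecm1 and Cst3 are higher in the highest than in the lowest range, and Ptma, H2afz, Ncl and S100a6 lower.

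Few genes of the named cells differed between the suffixes beyond 2-fold. Of 2045 genes, 18 (0.880%) were higher in suffix 1 and 1 (0.0489%) lower. Among the highest were Lcn2, Csf3r, S100a9, P2ry14 and Nr4a3, with log2 ratios between 2.11 and 3.04, and the lower gene was Gm1673 at -1.50. Of these, Lcn2, Csf3r and S100a9 are neutrophil genes. The mix of sets also differed, with 31 Ctsk-low cells of 165 in suffix 1 and 9 of 157 in suffix 2. Of the 64 P2ry14 UMIs in suffix 1, 59 were in Ctsk-low cells. Among Ctsk-high cells alone, 7 of 1980 genes (0.354%) were higher in suffix 1 and 1 (0.0505%) lower. S100a9 was at 28.1 against 7.35 UMIs per 10000 and S100a8 at 20.6 against 6.84, and neutrophils numbered 5712 of 13162 cells in suffix 1 and 925 of 3221 in suffix 2. The part of neutrophil RNA in this difference was not tested. Among Ctsk-low cells, 3 of 312 genes (0.962%) were higher in suffix 1.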

How the data were processed

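Sorted cells of 4T1 tumours were profiled by 10x sequencing, per the labels' protocols, and the submitters' processing notes list Cell Ranger, Seurat and GRCm38 (mm10), with no roles or versions. The deposited values are UMI counts, with 4099 complete gene rows and 16383 cells used here and 1 incomplete row left out. Cell names are the authors' deposited labels. A cell's total over these genes is not its depth.

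UMIs were summed over cells within a suffix and scaled to 10000. Intervals are exact Poisson (levels), Clopper-Pearson (shares) and conditional binomial (ratios) at 95%, with 0 UMIs set to a floor of 3 in ratios. Cells are not replicates. The planned tests between groups were not run, because no label ties a suffix to a library. Members and lists were chosen with earlier results of these data known. Named genes were the 20 highest and 10 lowest ratios against other cells, 8 and 8 against cDC1_Ccl22 and Macro_Maf, 6 and 6 between suffixes, and list members, of which part is printed. Some genes' results are left out here. The ratio script was tested on simulated data. Promoters are RefSeq's and coordinates GENCODE M21's. Versions were matplotlib 3.10.9, pandas 2.3.3, scipy 1.17.1, numpy 2.4.6 and Python 3.11.15.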

Additional observations from a re-analysis of the deposited data

How the results depend on the processing

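No paired analysis was possible because the 2 suffixes with counts cannot be tied to the libraries that share a replicate number, and leaving out a replicate was not possible for the same reason. Of 365 genes higher in the named cells than in other cells of suffix 1, the number became 1396 in UMIs per cell, 210 without S100a8 and S100a9 in the denominator, 658 as a mean over cells and 199 with neutrophils left out of the other cells. Of 376 lower genes it became 135 per cell, 1048 as a mean over cells and 587 in suffix 2. The 166 genes higher than in cDC1_Ccl22 became 759 per cell, and the 18 genes higher in suffix 1 than in suffix 2 became 7 when only Ctsk-high cells were used, an alternative chosen after seeing the data. The share of named cells at or above the cut of 50 was 81.2% in suffix 1 and 94.3% in suffix 2. Which genes made up these counts was not compared, and the cause of each change was not tested. Over the genes named by rule, 440 of 449 recomputed values kept their direction and call. These include values at a minimum of 10 UMIs: 30 against other cells, 16 each against cDC1_Ccl22 and Macro_Maf, and 7 between suffixes. Those could not change, because each gene had already passed the minimum of 50. The genes were also picked for extreme ratios, against other cells at 4.40 or more and at -5.56 or less in log2. UMIs per cell and a changed denominator move all ratios of a comparison by 1 shared amount, so these calls had little room to change. The count of kept values is therefore no measure of how firm the results are. The 1 reversal was P2ry14 between the suffixes, with a log2 ratio of 2.14 in all named cells and -0.33 in Ctsk-high cells. The latter rests on 5 and 8 UMIs, too few to be called in either direction. All 64 values against Macro_Maf, 60 of 64 against cDC1_Ccl22 and 299 of 300 against other cells kept theirs. The 31 and 9 Ctsk-low cells limit what can be called in them, most of all in suffix 2.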

Other observations

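Slc9b2 lies in a run of genes on chromosome 3 (GRCm38, GENCODE M21) whose members differed in the Ctsk-high cells, a region looked at after the values were seen. Bdh2, at chr3:135281221-135304426, ends shortly before Slc9b2, at chr3:135307700-135345387, and was at 11.8 and 14.1 UMIs per 10000 in the Ctsk-high cells of suffixes 1 and 2 against 0.225 and 0.457 in other cells. Slc9b1, the sperm-type paralog of Slc9b2 at chr3:135348029-135397827, had only 22 and 19 UMIs in the Ctsk-high cells, too few to be called, with log2 ratios of 5.22 and 3.95. These 3 genes lie on the plus strand. How reads from overlapping or read-through transcripts were counted is not given in the sources used here. Manba, a lysosomal mannosidase at chr3:135485611-135571404, was higher with ratios of 2.11 and 2.03. Cisd2 and Ube2d3, which lie between Slc9b1 and Manba, were not called: their ratios were -0.16 and -0.16 (suffix 1) and -0.27 and -0.34 (suffix 2). Cenpe, the centromere motor on the other side of Bdh2, was lower at -3.28 and -5.08.

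Csf1, the macrophage growth factor that osteoclast precursors need, was itself low in the Ctsk-high cells, at 0.177 and 0.449 UMIs per 10000 against 2.57 and 2.77 in other cells (log2 ratio -3.87 and -2.63). Among epithelial-named cells of suffix 2, 5 of 106 lay at or above the Ctsk cut. Of these, 1 held 5 or more Ctsk UMIs. The 5 cells together held 509 UMIs of Ctsk, 333 of Mmp9 and 29 of Slc9b2.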
